A study of Homo sapiens with 6 samples.

Results

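A set of 10 genes that mark the epithelial or the mesenchymal state of a cell were followed through bulk RNA-seq of naive and primed human pluripotent stem cells. The set, chosen by name, holds CDH1, CDH2, EPCAM, VIM, FN1, ZEB1, ZEB2, SNAI1, SNAI2 and TWIST1. All 10 were found, each under 1 Ensembl identifier, among the 48183 gene names of the count table, and all 10 entered the test. Polyadenylated RNA was measured in 6 libraries of human embryonic stem cells, which the labels name H1 and the text of the study names H9. Every library came from cells with EOS, a GFP reporter driven by the distal enhancer of OCT4 and inserted with piggyBac.

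The 4 naive libraries came from cells induced with valproic acid (VPA naive), with a constitutively active p38 (CA-p38 naive), or with AICAR, an activator of AMPK (AICAR naive 1 and AICAR naive 2). The 2 primed libraries were the untreated EOS line (EOS primed) and the untreated CA-p38 EOS line (CA-p38 primed), which carries a Tet-ON transgene for active p38 that doxycycline turns on. CA-p38 naive cells came from the CA-p38 EOS line and the other 3 naive libraries from the EOS line. AICAR induction lasted 14 days and was followed by 14 or 15 passages, which of them belongs to which library not being given. The study labels the CA-p38 cells day 7 and the VPA cells day 9, each with 12 passages after that day. The day 7 label need not be the length of doxycycline treatment. The study describes 1 more week at a lower AICAR dose after the 14 days, and then expansion without AICAR. It describes the CA-p38 cells as expanded without doxycycline, first on mouse embryonic fibroblast feeders and later without feeders. AICAR and doxycycline were given in PXGL medium (the MEK inhibitor PD0325901, the tankyrase inhibitor XAV939, the protein kinase C inhibitor Go6983 and human LIF in Ndiff227) on Matrigel with mouse embryonic fibroblast feeders. VPA was given in Ndiff227 with PD0325901 and LIF before culture in PXGL. Naive cells were sorted for CD75 and SUSD2. Primed cells grew in StemFit AK02N on Matrigel. State, medium, any feeders and sorting therefore cannot be told apart. No label says that libraries of a state came from separate cultures of 1 treatment, so p-values measure the spread between these libraries. That spread lies between inductions and lines in naive libraries and between lines in primed ones, and may in part be technical.

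Library totals ran from 46823699 to 54277064 counts, and 3 counts corresponded to 0.0553 to 0.0641 CPM (counts relative to the library total; the levels given here are also scaled by TMM factors). No pair of libraries agreed within sampling noise (chi-square over degrees of freedom of at least 18.1), so each counted as 1 library. The summed level of 7 naive markers, SUSD2 of the sort among them, was 3058 to 3550 CPM in naive and 7.995 to 10.9 CPM in primed libraries, and that of 6 pluripotency markers was 2950 to 3235 and 3256 to 3360 CPM. MAPK14, which encodes p38α, lay at 41.1 to 55.4 CPM in all 6 libraries. Its level in CA-p38 naive was 55.4 CPM and in CA-p38 primed 52.1 CPM.

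Epithelial cells are held together by E-cadherin, the product of CDH1, which is anchored to actin through catenins, and many also carry the adhesion molecule EpCAM. In an epithelial-mesenchymal transition, E-cadherin gives way to N-cadherin (CDH2), while the intermediate filament protein vimentin (VIM) and the matrix protein fibronectin (FN1) accumulate. ZEB1, ZEB2, SNAI1 (Snail), SNAI2 (Slug) and TWIST1 are transcription factors known to drive that transition, and ZEB1 and ZEB2 are known to be held down by the miR-200 family of microRNAs. Primed human pluripotent stem cells grow as epithelial colonies, and the study describes its AICAR and CA-p38 naive cells as forming dome-shaped ones.

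Of the 10 genes, 9 passed the test between naive and primed libraries, but they did not split along the epithelial and mesenchymal labels. CDH1, SNAI1 and TWIST1 were higher in naive libraries, 3 of 10 genes, where 26% of all 26497 genes tested were called higher. CDH2, EPCAM, VIM, FN1, ZEB1 and SNAI2 were lower, 6 of 10 genes, against 27% of all genes. ZEB2 did not pass. SNAI2 entered the test through the primed libraries alone, so its call among the 6 holds with that limit. The median absolute log2 fold change was 3.15 over the 10 genes and 0.85 over all genes tested. Of the 10 genes 5, SNAI2 among them, passed with at least a 10-fold difference, compared with 9.18% of all genes. The set was chosen with earlier results of these data known, so these values describe it and cannot show that it is unusual. In 9 of the 10 genes, ZEB2 being the exception, no naive library overlapped a primed one, which also held for 64.9% of all genes. In bulk RNA, fewer cells that express a gene and less RNA per cell cannot be told apart.

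**Figure D1:**
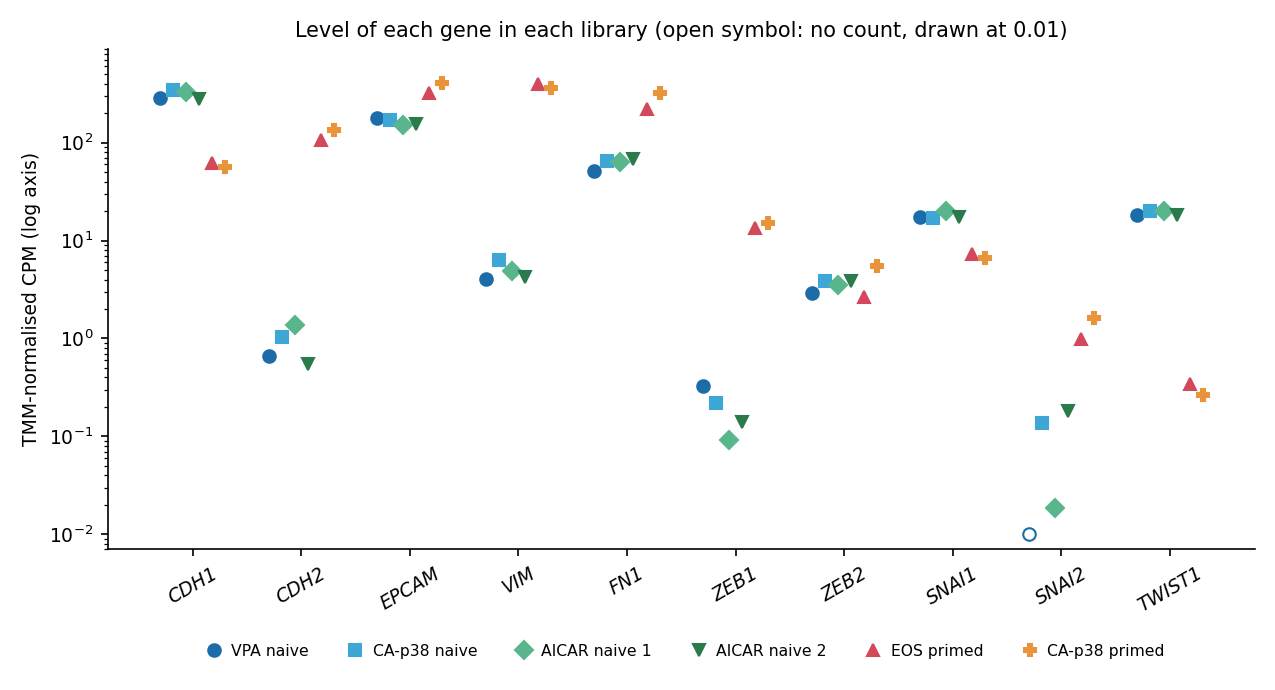
Level of each of the 10 genes in TMM-normalised CPM (log axis) in each of the 6 libraries, 1 symbol per library; the open symbol marks a library without a count. The 4 naive symbols lie above both primed symbols for CDH1, SNAI1 and TWIST1, below them for CDH2, EPCAM, VIM, FN1, ZEB1 and SNAI2, and between them for ZEB2.

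CDH1 and CDH2 went in opposite directions between the states. CDH1 (chr16:68737292-68835537, plus strand; spans here and below are GENCODE 44 gene spans on GRCh38) was measured at 286 CPM in VPA naive, 346 in CA-p38 naive, 332 in AICAR naive 1 and 280.0 in AICAR naive 2, and at 62.6 CPM in EOS primed and 56.8 in CA-p38 primed. All naive libraries stood at least 4.48 times above both primed ones, with a mean of 311 ± 32.9 CPM (SD, n = 4). The log2 fold change was 2.38 ± 0.13 (SE), a 5.21-fold higher level (adjusted p = 7.19e-09, edgeR).

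CDH2 (chr18:27932879-28177946, minus strand) was at 0.669 CPM in VPA naive, 1.03 in CA-p38 naive, 1.38 in AICAR naive 1 and 0.544 in AICAR naive 2, against 107 CPM in EOS primed and 134 in CA-p38 primed. Its transcript remained detectable in each naive library, above the 3-count floor, yet the highest of them was 77.7 times below the lower primed library. The difference, a log2 fold change of -7.04 ± 0.25 (SE), was the largest among the 10 genes (adjusted p = 2.04e-10, edgeR).

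EPCAM, the other epithelial surface gene of the set, went the other way from CDH1. Its level (chr2:47345158-47387601, plus strand) was 177 CPM in VPA naive, 171 in CA-p38 naive, 152 in AICAR naive 1 and 156 in AICAR naive 2, and 325 CPM in EOS primed and 410.1 in CA-p38 primed. The groups did not overlap, but the lower primed library was only 1.84 times above the highest naive one. EPCAM fell by 1.17 ± 0.11 (SE) on the log2 scale, or 2.25-fold (adjusted p = 1.58e-06, edgeR), the smallest change among the 9 genes that passed.

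Both mesenchymal structural genes were lower in naive libraries. VIM (chr10:17228241-17237593, plus strand) was at 4.05 CPM in VPA naive, 6.33 in CA-p38 naive, 4.88 in AICAR naive 1 and 4.29 in AICAR naive 2, against 394 CPM in EOS primed and 365 in CA-p38 primed. Every naive library was at least 57.6 times below both primed libraries, and the log2 fold change was -6.28 ± 0.16 (SE; adjusted p = 1.86e-11, edgeR). VIM-AS1, an antisense gene that overlaps exons of VIM, lay at 0.161 to 0.294 CPM in naive and 26.7 to 32.7 CPM in primed libraries, and since the use of strand in counting is not given in the sources used here, reads of the pair cannot be told apart.

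FN1 (chr2:215360440-215436073, minus strand) changed less. It was at 51.4 CPM in VPA naive, 64.3 in CA-p38 naive, 64.1 in AICAR naive 1 and 68.7 in AICAR naive 2, and at 218 CPM in EOS primed and 322 in CA-p38 primed. The 2 primed libraries differed by 1.48 times, less than the gap of 3.18 times between the groups. FN1 fell by 2.12 ± 0.15 (SE) on the log2 scale, or 4.35-fold (adjusted p = 9.23e-08, edgeR). A list of 8 fibroblast markers was read for the feeder cells. Its summed level was 30.9 to 72.9 CPM in naive and 191 to 210 CPM in primed libraries. Of the 8 markers, 4 were called lower and 0 higher in naive libraries, against 27% and 26% of all genes. PDGFRB and POSTN, among the 4, entered the test through the primed libraries alone, so their calls hold with that limit. The 8 markers did not move alike. PDGFRB was at or below 0.181 CPM in naive and at 16.3 and 17.2 CPM in primed libraries, and DPT had no count in 5 of the 6 libraries and 0.141 CPM in AICAR naive 2. DCN was at 0.764 to 1.21 CPM in naive and 0.511 and 0.566 CPM in primed libraries and LUM reached 1.17 CPM in CA-p38 naive against 0.0409 and 0.121 CPM in primed ones, neither passing the test. COL3A1 stood at 16.6 CPM in CA-p38 naive, at 3.57 to 7.05 CPM in the other 3 naive libraries and at 2.19 and 4.75 CPM in the primed ones. Whether reads of mouse feeder cells were counted on human transcripts was not tested.

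The paralogs ZEB1 and ZEB2, zinc finger repressors of CDH1, differed from one another. ZEB1 (chr10:31318495-31529814, plus strand) had 0.325 CPM in VPA naive, 0.218 in CA-p38 naive, 0.0920 in AICAR naive 1 and 0.141 in AICAR naive 2, and 13.4 CPM in EOS primed and 15.2 in CA-p38 primed. The naive values rest on 17, 11, 5 and 7 counts. All 4 were at least 41.3 times below the primed libraries, a log2 fold change of -6.19 ± 0.35 (SE; adjusted p = 1.11e-08, edgeR). ZEB1-AS1, which overlaps ZEB1 on the opposite strand, was at 0.248 to 0.594 CPM in naive and 2.66 to 5.03 CPM in primed libraries, so that it exceeded ZEB1 in 3 of the 4 naive libraries. As for VIM, reads of the pair cannot be told apart, which bears on the few ZEB1 counts of the naive libraries.

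ZEB2 (chr2:144364364-144521057, minus strand) was at 2.94 CPM in VPA naive, 3.82 in CA-p38 naive, 3.48 in AICAR naive 1 and 3.89 in AICAR naive 2, and at 2.67 CPM in EOS primed and 5.44 in CA-p38 primed. All naive libraries lay between the 2 primed ones, which differed by 2.04 times. The log2 fold change was -0.20 ± 0.30 (SE), with an adjusted p of 0.608 (edgeR) and of 0.135 to 0.996 over 16 alternative settings, and its sign turned to 0.41 without CA-p38 primed.

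Since ZEB1 and ZEB2 differed in this way, the miR-200 sequences and their matches in both transcripts are shown. The 5 mature members of the family (RefSeq, GRCh38.p14) fall into 2 groups by seed, bases 2 to 8, given here in capitals. The first 3 share AAUACUG and the last 2 share AACACUG.
hsa-miR-200b-3p: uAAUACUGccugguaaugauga
hsa-miR-200c-3p: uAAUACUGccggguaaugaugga
hsa-miR-429: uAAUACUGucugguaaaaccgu
hsa-miR-200a-3p: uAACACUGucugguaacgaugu
hsa-miR-141-3p: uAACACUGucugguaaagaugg

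The 3′ UTR of the canonical ZEB1 transcript (2540 bases) holds 6 matches to the first seed, written CAGTATT on the transcript, and 3 to the second, CAGTGTT. That of ZEB2 (5370 bases) holds 5 and 4. A total of 9 or more was found in 0.0416% of 19228 canonical 3′ UTRs, of which 28.3% hold at least 1 match, on the transcript strand only. By total matches, the gene that fell and the gene that did not pass were both among that 0.0416%. Per kilobase, matches numbered 3.54 in ZEB1, 1.68 in ZEB2 and 0.254 over all 3′ UTRs. Totals grow with length, and no rank per kilobase was made. The part of miR-200 in the difference between the 2 genes was not tested. For each gene, the first 2 matches to the first seed and the first match to the second are printed 5′ to 3′, with the match in capitals.
ZEB1 chr10:31527618-31527647 (plus strand): attgttttatcttatCAGTATTatcactct
ZEB1 chr10:31527712-31527741 (plus strand): atgctaaatccgcttCAGTATTttattatg
ZEB1 chr10:31528031-31528060 (plus strand): caaaatcatcagaatCAGTGTTtgtgattg
ZEB2 chr2:144389045-144389074 (minus strand): cgcactaccatacatCAGTATTtttattat
ZEB2 chr2:144388982-144389011 (minus strand): cgcactacaatgcatCAGTATTatgattcc
ZEB2 chr2:144389229-144389258 (minus strand): tgcaaaaattttgtaCAGTGTTaaggccta

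Mature microRNAs were not measured. MIR200CHG, the host transcript of miR-200c and miR-141, had 43 counts in VPA naive, 15 in CA-p38 naive, 11 in AICAR naive 1 and 32 in AICAR naive 2, against 1 in EOS primed and 0 in CA-p38 primed. With the floor of 3 counts in each primed library, its mean CPM was at least 8.06-fold higher in naive libraries. It passed the filter on low counts through the naive libraries alone, so no p-value of it is given, though it counts among the higher genes of its list below. The level stayed below 1 CPM in every library.

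ZEB and SNAI proteins bind an E-box of the letters CACCTG, or CAGGTG on the other strand. Of the 10 genes, CDH2, VIM, FN1, ZEB1 and ZEB2 had a promoter entry in the RefSeq table used, of 250 bases before to 50 after a transcription start, and the entry at the start of the canonical transcript was searched on both strands. ZEB1 was the 1 gene with a match, and it had 3, which begin 242 and 85 bases before and 33 bases after the start. At least 1 match was found in 20.6% of 35116 promoters of that length, and at least 3 in 0.635%. The ZEB1 promoter is shown for this reason, with the E-boxes in capitals (GRCh38.p14, plus strand).
ZEB1 chr10:31318966-31319265: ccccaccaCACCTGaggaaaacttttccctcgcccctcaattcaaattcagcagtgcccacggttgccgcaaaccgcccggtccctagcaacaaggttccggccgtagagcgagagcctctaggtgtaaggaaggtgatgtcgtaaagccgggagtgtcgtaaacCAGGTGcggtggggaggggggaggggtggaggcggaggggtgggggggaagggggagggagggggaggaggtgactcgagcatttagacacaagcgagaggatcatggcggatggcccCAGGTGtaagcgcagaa

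Of the remaining transcription factors, TWIST1 and SNAI1 rose and SNAI2 fell. TWIST1, a basic helix-loop-helix factor of mesoderm and neural crest (chr7:19020991-19117636, minus strand), was at 18.1 CPM in VPA naive, 19.9 in CA-p38 naive, 20.02 in AICAR naive 1 and 18.3 in AICAR naive 2, against 0.344 CPM in EOS primed and 0.266 in CA-p38 primed. The naive libraries differed among themselves by 1.11 times and stood at least 52.7 times above the primed ones, which held 17 and 13 counts. The log2 fold change was 5.96 ± 0.25 (SE; adjusted p = 9.09e-10, edgeR).

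SNAI1 (chr20:49982980-49988886, plus strand), the founding member of the Snail family, was at 17.3 CPM in VPA naive, 17.2 in CA-p38 naive, 19.9 in AICAR naive 1 and 17.4 in AICAR naive 2, and at 7.28 CPM in EOS primed and 6.69 in CA-p38 primed. The groups were 2.36 times apart at their nearest, and SNAI1 rose by 1.36 ± 0.17 (SE) on the log2 scale, or 2.57-fold (adjusted p = 1.62e-05, edgeR).

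SNAI2, its relative (chr8:48917598-48921740, minus strand), had 0 counts in VPA naive, 7 in CA-p38 naive, 1 in AICAR naive 1 and 9 in AICAR naive 2, and 49 in EOS primed and 79 in CA-p38 primed, or 0.990 and 1.62 CPM in the primed libraries. It was low in both states and passed the filter on low counts through the primed libraries alone. The log2 fold change was -3.93 ± 0.82 (SE), and it was -4.60 without AICAR naive 2. No p-value of SNAI2 is given, because the filter let it in through the group where it was higher.

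Per kilobase of the canonical transcript, which allows genes to be compared, EPCAM was the most abundant of the 10 in both states, with a mean of 106 CPM per kb in naive and 238 in primed libraries. In naive libraries CDH1 followed at 64.7 CPM per kb, then TWIST1 at 11.7, SNAI1 at 10.5 and FN1 at 7.41, with VIM at 2.27, ZEB2 at 0.381, CDH2 at 0.225, SNAI2 at 0.0388 and ZEB1 at 0.0327. The ranges of TWIST1 and SNAI1 overlapped, as did those of ZEB2 and CDH2 and those of SNAI2 and ZEB1. In primed libraries VIM followed EPCAM at 176 CPM per kb, then FN1 at 32.2, CDH2 at 29.99, CDH1 at 12.4, SNAI1 at 4.09, ZEB1 at 2.41, SNAI2 at 0.598, ZEB2 at 0.437 and TWIST1 at 0.187. Here FN1 and CDH2 overlapped, and so did SNAI2 and ZEB2. Among the 5 transcription factors, the most abundant per kilobase was TWIST1 in the naive mean, its range overlapping that of SNAI1, and SNAI1 in the primed libraries.

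Ratios of counts within a library need no scaling between libraries (0.5 was added to each count). The log2 ratio of CDH1 to CDH2 was 8.72 in VPA naive, 8.38 in CA-p38 naive, 7.90 in AICAR naive 1 and 8.98 in AICAR naive 2, and -0.78 in EOS primed and -1.23 in CA-p38 primed. It was 9.50 higher in the naive mean. For EPCAM to VIM, the log2 ratio ran from 4.75 to 5.44 in naive libraries and was -0.28 in EOS primed and 0.17 in CA-p38 primed, a difference of 5.14 between the means, although EPCAM itself was lower in naive libraries. The log2 ratio of ZEB1 to ZEB2 turned from 2.33 in EOS primed and 1.48 in CA-p38 primed to between -5.11 and -3.14 in naive libraries, so ZEB2 had more counts than ZEB1 in each naive library and fewer in each primed one. The ratios are given as a description, without a test.

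**Figure D2:**
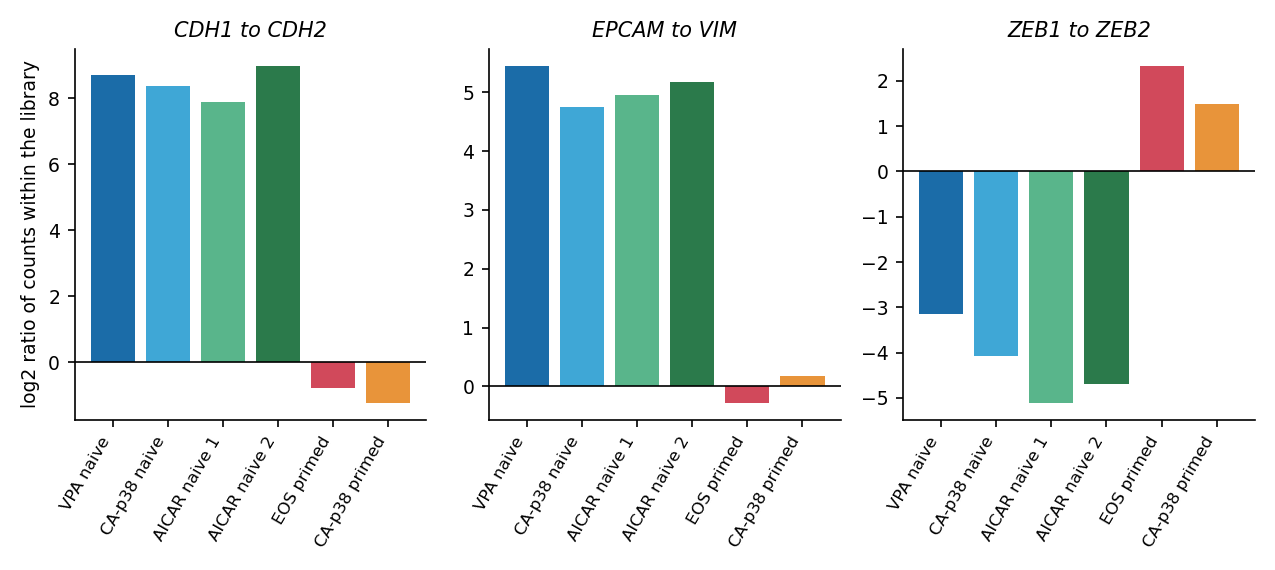
Log2 ratio of the counts of 2 genes within each library, for CDH1 to CDH2, EPCAM to VIM and ZEB1 to ZEB2; 1 bar per library, measured from 0. The CDH1 to CDH2 and ZEB1 to ZEB2 ratios have opposite signs in naive and primed libraries, and EPCAM to VIM is between 4.75 and 5.44 in naive libraries and near 0 in primed ones.

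Each naive library was also set against the primed library of its own line, a description of single libraries in which 3 of the 4 share EOS primed. CDH1 was higher by 4.58 times in VPA naive, 6.10 times in CA-p38 naive, 5.30 times in AICAR naive 1 and 4.48 times in AICAR naive 2, so the induction with active p38, in its own line, stood highest (exact binomial 95% interval of its counts 5.86 to 6.35, counting error only). VIM was lower by 97.2 times in VPA naive, 80.7 times in AICAR naive 1 and 91.8 times in AICAR naive 2, and by 57.6 times in CA-p38 naive (51.5 to 64.5). CA-p38 naive also had the highest sum of fibroblast markers among the naive libraries, at 72.9 CPM against 30.9 to 50.7 CPM. The part of feeder cells in the VIM values was not tested. CDH2 was lower by between 77.7 and 197 times and TWIST1 higher by between 52.7 and 74.8 times.

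SNAI2 was at least 17.3-fold lower in VPA naive than in EOS primed, with 3 counts taken as its floor, and 11.7 times lower in CA-p38 naive than in CA-p38 primed (5.40 to 29.9). In AICAR naive 1 it was 53.8 times lower (9.21 to 2168, on 1 count) and in AICAR naive 2, the smallest difference, 5.46 times lower (2.66 to 12.7). ZEB2 was the 1 gene whose ratio to the parental library differed in direction between naive libraries. It was 0.702 times its parental level in CA-p38 naive (0.580 to 0.849), and 1.10 times in VPA naive (0.868 to 1.40, which includes 1), 1.304 times in AICAR naive 1 (1.04 to 1.64) and 1.46 times in AICAR naive 2 (1.16 to 1.83). Its naive levels ran from 2.94 to 3.89 CPM, with CA-p38 naive at 3.82 CPM. The parental libraries EOS primed and CA-p38 primed stood at 2.67 and 5.44 CPM. Induction with active p38 and its line cannot be told apart here. A test of the difference between the lines, added after these values were seen, gave an interaction of -0.87 ± 0.60 (SE) for ZEB2 (adjusted p = 0.9999, edgeR). None of the 10 genes passed that test, in which VIM had an unadjusted p of 0.0248 and the other 9 genes stood above 0.05. It has 1 naive and 1 primed library of the CA-p38 EOS line, so its spread comes from the EOS line alone.

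**Figure D3:**
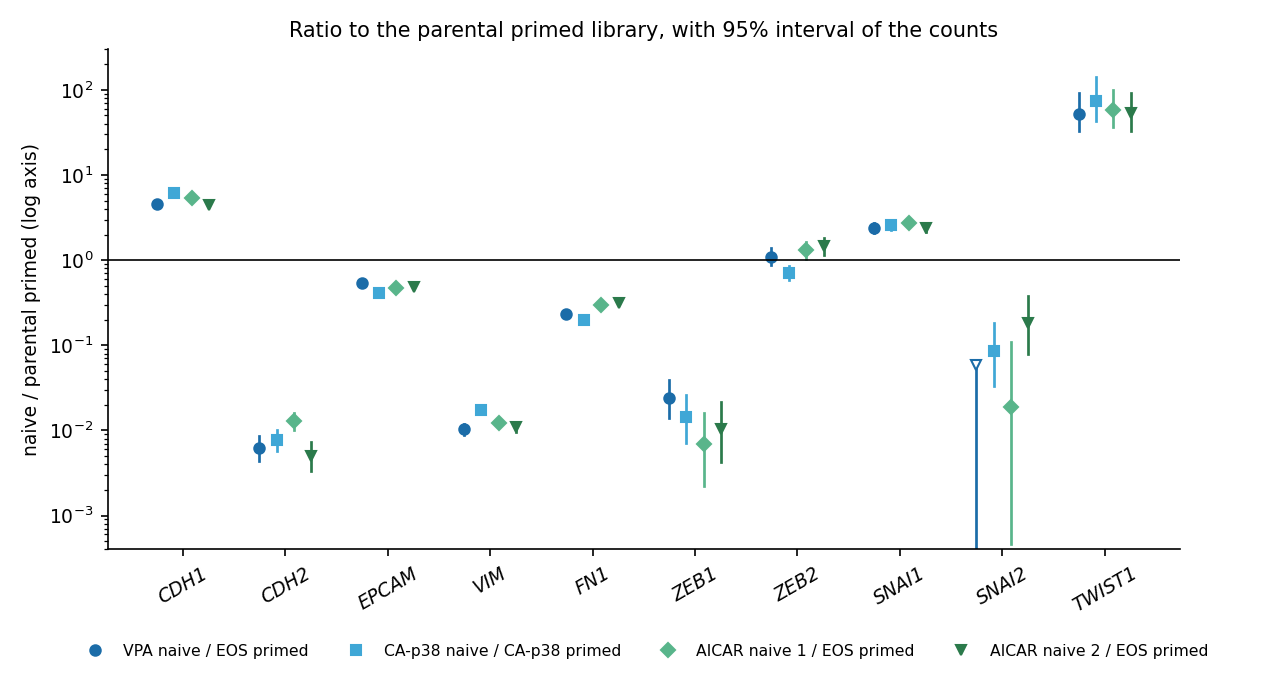
Ratio of each naive library to the primed library of its own line (log axis) for the 10 genes; vertical lines are exact 95% binomial intervals of the counts, and the open triangle is the limit set by 3 counts for SNAI2 in VPA naive. The 4 naive libraries lie on the same side of 1 for every gene but ZEB2, where CA-p38 naive is at 0.702 and the others are at 1.10 to 1.46.

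The genes around these 10 were read in 9 lists. Over all genes tested the median log2 fold change was 0.11, with 26% called higher and 27% lower, and the counts of each list are to be read beside these shares. Epithelial transcription and splicing regulators were mostly higher in naive libraries, with 8 of 10 tested genes higher, 1 lower and 1 not passing. MIR200CHG, among the 8, entered the test through the naive libraries alone, so its call holds with that limit. The median log2 fold change was 2.40, and also 2.40 with the floor bound of MIR200CHG in place of its fitted change. KLF5, a Krüppel-like factor of epithelia and early embryo, went from 1.70 and 1.45 CPM in primed libraries to 149 to 204 CPM (log2 fold change 6.85 ± 0.19). The ETS factor ELF3 went from 2.04 and 1.78 CPM to 156 to 211 CPM (6.60 ± 0.19). OVOL1 and OVOL2, zinc finger factors that keep cells epithelial, rose by 3.32 and 2.67 on the log2 scale. GRHL2, a grainyhead factor that activates CDH1, was the 1 that fell, by 0.83 (adjusted p = 0.0415, edgeR). That call was lost without CA-p38 naive (adjusted p = 0.0627), EOS primed (0.122) or CA-p38 primed (0.141). The splicing regulator ESRP1, at 118 to 143 CPM in all 6 libraries, did not pass.

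Of 15 epithelial adhesion and polarity genes, 7 were higher, 3 lower and 5 did not pass, with a median of 0.24. CEACAM1 and the polarity gene CRB3 rose by 2.49 and 1.68, and MAL2, which acts in apical transport, fell by 2.66. CDH3, encoding P-cadherin, fell by 1.13.

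Most genes of the adherens junction list, which holds catenins and other actin linkers as well as the nectins, adhesion receptors of the same junction, were lower where CDH1 was higher. Of 10 genes 8 were lower in naive libraries, NECTIN2 was higher (0.81) and JUP, plakoglobin, did not pass (adjusted p = 0.0618, or 0.0392 with DESeq2 size factors, edgeR), with a median of -1.31. CTNNB1, β-catenin, was at 92.9 CPM in VPA naive, 104 in CA-p38 naive, 118 in AICAR naive 1 and 107 in AICAR naive 2, and at 558 CPM in EOS primed and 554 in CA-p38 primed, so that it fell by 2.40 ± 0.10 on the log2 scale (adjusted p = 1.02e-09, edgeR). CTNNA2, the neural α-catenin, fell by 4.67, NECTIN3 by 3.83 and NECTIN1 by 2.31.

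Desmosome genes went both ways, with 4 of 9 tested genes higher, 4 lower and 1, DSC2, not passing (median -0.21). PKP3, plakophilin 3, rose from 2.16 and 1.35 CPM to 52.5 to 65.4 CPM (log2 fold change 5.08 ± 0.22), DSP, desmoplakin, rose by 1.21 and EVPL, envoplakin, by 1.93, while DSC3 fell by 2.43. Among 10 keratins and other intermediate filament genes, 3 were higher, 5 lower and 2 did not pass (median -1.01). KRT8 and KRT18, the keratin pair of simple epithelia, fell together with VIM, by 1.70 and 2.33 on the log2 scale, and nestin (NES) fell by 2.38. LMNA, which encodes lamin A, rose by 1.57. Of 13 other cadherins tested, 3 were higher, 3 lower and 7 did not pass (median 0.41), shares near those of all genes. CDH8 rose by 1.99, and CDH4 and CDH24 fell by 3.03 and 1.80. The fall of CDH6 by 1.08 rested on CA-p38 primed, at 10.04 CPM against 3.82 CPM in EOS primed, and without that library it was -0.22 (adjusted p = 0.689, edgeR).

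Mesenchymal cytoskeleton and matrix genes were lower as VIM and FN1 were, with 13 of 17 lower, 1 higher and 3 not passing, and a median of -2.45. S100A4, among the 13, entered the test through the primed libraries alone, with 3 to 6 counts in naive libraries. Its call holds with that limit. TNC, the matrix protein tenascin C, was at 0.401 to 0.930 CPM in naive libraries and at 28.1 and 54.7 CPM in the primed pair, which is a log2 fold change of -6.07 ± 0.31. Fibrillin (FBN1), the receptor kinase AXL and the proteoglycan versican (VCAN) fell by 3.54, 3.44 and 3.04. MMP14, a membrane-bound matrix protease, was the gene that rose, by 0.73. SPARC and CD44 were among those that did not pass, and SPARC was at 274 to 347 CPM in all 6 libraries.

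Of 11 other transcription factors of the transition, 3 were higher, 4 lower and 4 did not pass (median -0.61). TWIST2 rose as its paralog TWIST1 did, from 0.182 CPM in EOS primed and 0.981 in CA-p38 primed to 5.32 to 9.76 CPM in naive libraries. TWIST2, among the 3 higher, passed the filter on low counts through the naive libraries alone, since EOS primed lay below it. Its call holds with that limit. Its log2 fold change of 3.74 ± 0.52 was 5.40 without CA-p38 primed and 2.97 without EOS primed. FOXC1 rose by 3.76, or 4.54 without CA-p38 primed. TCF4, an E-protein partner of basic helix-loop-helix factors, fell by 4.41, from 88.7 and 106 CPM to between 3.23 and 6.56 CPM. Among 15 genes of TGF-β signaling, which is known to induce the transition, 5 were higher, 8 lower and 2 did not pass (median -0.39). The ligand TGFB3 and the co-receptor TGFBR3 rose by 4.52 and 2.94, whereas the signaling receptor TGFBR2 fell by 4.40, from 17.8 and 17.4 CPM to between 0.614 and 1.18 CPM, and LTBP1, which holds the latent ligand in the matrix, fell by 2.40.

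**Figure D4:**
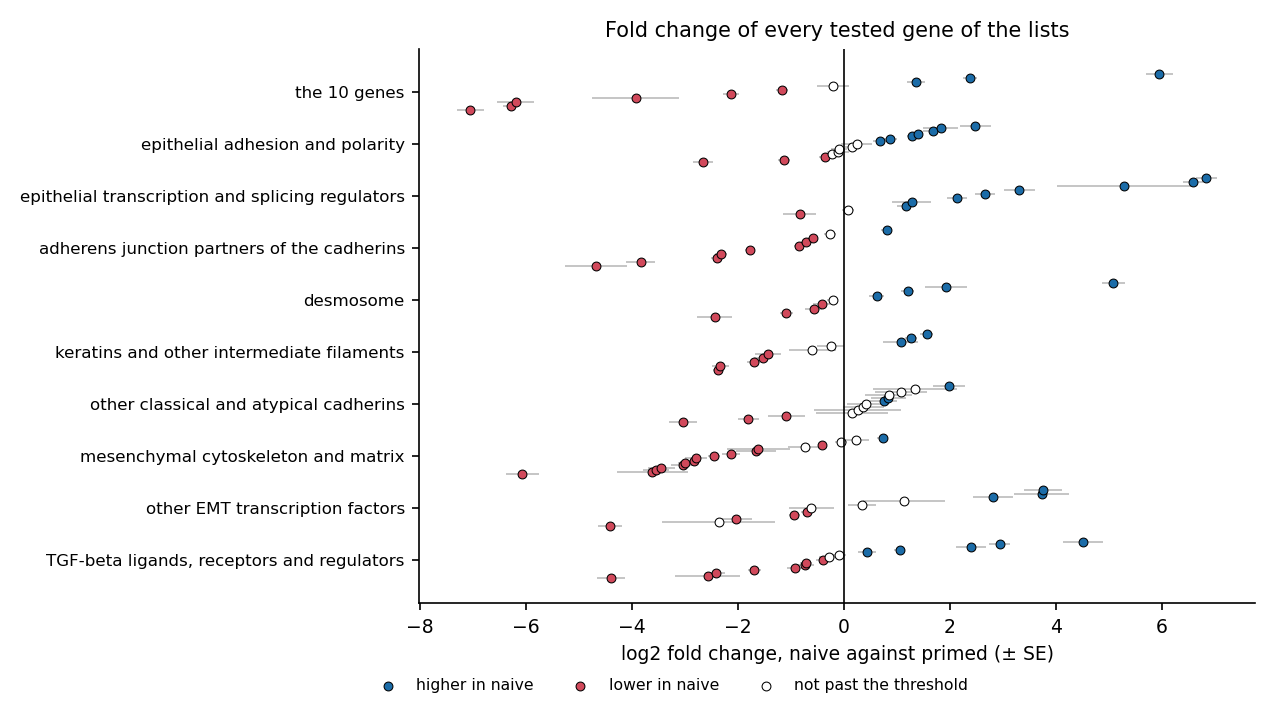
Log2 fold change (± SE) of naive against primed libraries for every tested gene of the set and of the 9 lists; filled blue points are higher in naive, filled red points lower, and open points did not pass at an adjusted p of 0.05. Most regulators of the epithelial list lie to the right of 0, and most adherens junction partners and mesenchymal matrix genes to the left.

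Markers of other cell types were read beside these results, and their counts beside the shares of all genes, 26% called higher and 27% lower. The summed level of 7 trophoblast markers was 15.4 to 16.8 CPM in naive and 4.06 to 5.44 CPM in primed libraries, with 3 higher and 0 lower. That of 6 mesoderm markers was 13.0 to 15.8 CPM in naive libraries and 5.82 and 15.3 CPM in primed ones, with 2 higher and 1 lower. The 7 neural markers summed to 157 to 198 CPM in naive and 128 to 147 CPM in primed libraries, of which TUBB3 alone made up 153 to 195 and 113 to 131 CPM, with 1 higher and 2 lower. For 6 endoderm and hypoblast markers the sum was 11.9 to 18.04 CPM in naive libraries, 8.67 CPM in EOS primed and 31.9 CPM in CA-p38 primed. Of these markers 1 was higher in naive libraries and 4 lower. FOXA2 stood at 0.416 to 1.19 CPM in naive libraries and at 5.36 and 21.4 CPM in the primed pair. GATA4 went the other way, at 7.53 to 13.5 CPM in naive libraries and 0 and 0.941 CPM in the primed pair. CA-p38 primed was also the higher of that pair for ZEB2, CDH6 and TWIST2. Among the markers called higher, GATA2, HAND1, TBXT and GATA4 entered the test through the naive libraries alone. Among those called lower, MAP2 and APOA1 entered through the primed libraries alone. These calls hold with that limit. The part of such cell types in any result was not tested.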

How the data were processed

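The deposited table held whole-number counts per Ensembl gene that the authors made by trimming adapters (cutadapt 1.15 in Trim Galore 0.4.4), mapping with Bowtie2 2.2.5 (very-sensitive-local) to cDNA and noncoding RNA of Ensembl GRCh38 release 100 and discarding alignments with a mapping quality below 1. Another 23 columns, of other studies, were not used. Identifiers with the same name were summed and 26 spike-in rows left out. The test of the 4 naive against the 2 primed libraries used edgeR 4.0.16 under R 4.3.3 (TMM, filterByExpr, glmQLFit, glmQLFTest, no covariate), with Benjamini-Hochberg adjustment over 26497 genes and a threshold of 0.05. Alternatives used limma 3.58.1 and DESeq2 1.42.0. In simulated data the edgeR test recovered 90% of changes of 2 and 16% of changes of 1 on the log2 scale, with 13 false calls among 25564 genes. The simulation gave every gene the same dispersion, whereas the real fit let it differ between genes. These shares therefore do not give the power for single genes of the real data.

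The 10 genes, the lists and the tests were chosen with earlier results of these data known. In each list, named genes were up to 4 with the largest change among those that passed at a mean of at least 1 CPM, beside exceptions that did not pass (ESRP1, JUP, DSC2, SPARC, CD44). GRHL2, CDH3, NECTIN2, MMP14, MIR200CHG, S100A4 and single markers were named after their values were seen. Some genes that the rule chose are counted but not reported here by name. Transcript lengths came from GENCODE 44 and sequences from RefSeq and GRCh38. Intervals and floors cover counting error only. Python 3.11.15 with pandas 2.3.3, numpy 2.4.6, scipy 1.17.1 and matplotlib 3.10.9 did the other steps.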

Additional observations from a re-analysis of the deposited data

Results flagged for a closer look

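SNAI1 in AICAR naive 1 stood apart from the other naive libraries, at 19.9 CPM against 17.2 to 17.4 CPM, and NECTIN2 in the same library, at 235 CPM against 218 to 219 CPM. DSP in CA-p38 naive stood apart at 564 CPM against 427 to 450.1 CPM. In each, the gap to the nearest library, divided by the range, was above Dixon's 95% limit for 4 libraries (0.928, 0.935 and 0.830). Chance gives this in about 1 of 20 groups, and it was seen in 3 of the 53 genes looked at.

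ZEB2 was higher than in the parental library in all 3 naive libraries of the EOS line and lower in the CA-p38 naive library. The interaction of state and line was -0.87 on the log2 scale and did not pass (adjusted p = 0.9999, edgeR).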

How the results depend on the processing

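The 9 calls among the 10 genes kept their direction and stayed past the threshold under every alternative in which the gene could be tested: other scalings, DESeq2, limma-voom, no filter, the parental line as a block, the EOS line only, the AICAR libraries summed, identifiers apart and each library left out. The call of SNAI2 holds with the limit that it passed the main filter through the primed libraries alone. With at least 10 counts required in every library, ZEB1 and SNAI2 were not tested and 4 genes were lower in place of 6, by that rule's construction. ZEB2 changed sign in the EOS line alone (0.35) and without CA-p38 primed (0.41), and over the libraries left out in turn it ran from -0.64 to 0.41, never passing. Of 844 results of single genes under alternatives, 825 kept their direction and call, 9 no longer passed, 4 newly passed and 6 turned in sign, the last all of genes that had not passed. The CDH6 values were -0.84 with the line as a block (adjusted p = 0.0853), -0.21 in the EOS line alone (adjusted p = 0.743) and -0.22 without CA-p38 primed (adjusted p = 0.689), all from edgeR. GRHL2 no longer passed with library totals (-0.73), with the line as a block (-0.83), in the EOS line alone (-0.85) or without CA-p38 naive, EOS primed or CA-p38 primed. JUP passed in 4 settings, from -0.28 to -0.41. SPARC turned with library totals (0.054), in the EOS line alone (0.086) and without CA-p38 primed (0.043), and CD44 without EOS primed (-0.0012), their ranges over the libraries left out being -0.14 to 0.043 and -0.0012 to 0.52. In the EOS line alone TWIST2 and FOXC1 rose by 5.38 and 4.46, and under limma-voom SNAI2 was at -4.64 and CTNNA2 at -5.55. The cause of these differences was not tested. The call of 14058 genes moved to between 10463 and 15585. No paired analysis was possible because replicate numbers were given in accession order and pair no libraries, and the parental line was used as a block instead (13420 genes called). Counts of 9 or fewer in SNAI2 and of 17 or fewer in ZEB1 limit the precision of their naive levels.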
